A study of Mus musculus with 50 samples.

Results

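The comparison was between non-regenerative mouse digits collected 6 hours and 3 hours after amputation. Its digits were taken by their labels, as the 3 digits of the 6 hour group and the 3 digits of the 3 hour group, which are 6 of the 50 samples of the series and 6 of its 29 non-regenerative digits. All came from male C57Bl/6 mice whose digit 3 was cut through the distal phalanx on both hindlimbs under isoflurane anaesthesia and left without suture. By the paper, a cut meant to regenerate was made on the side opposite the non-regenerative cut. The labels name no other treatment and no transgene or mutant allele. RNA was taken from the mixed cells around the wound bed, selected for poly(A) and sequenced, so each value is an average over bone, nail, skin and blood cells. In the study's scheme a non-regenerative digit has lost more than 67% of the phalanx. The labels give 63, 64 and 75% at 3 hours and 60, 74 and 76% at 6 hours, so 3 of the 6 digits were labelled below that threshold. All digits at 3 hours carry a date of 14 July 2015, and those at 6 hours carry 15 July for 2 digits and 19 November for the remaining digit. The labels do not say whether the digits of 1 group came from separate litters or runs, so p-values measure the spread between these digits.

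A wound is answered first by immediate early genes, whose products include the FOS, JUN and ATF3 subunits of the AP-1 transcription factor and which are switched on without new protein synthesis and switched off soon after. Later genes need those first products, and in skin they include the keratins, proteases, adhesion proteins and growth factors that keratinocytes use when they leave the resting layer and crawl over a wound. The distal phalanx of the mouse is covered by epidermis, footpad and nail, so both waves can be read in its RNA.

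Between 3 and 6 hours, 2 genes fell and 11 rose by the rule used here, an adjusted p under 0.05 and a mean normalized count, with 1 added, that differed more than 2-fold. The test was edgeR's quasi-likelihood test with Benjamini-Hochberg adjustment over the 12291 genes with enough counts. The genes that fell were the AP-1 members Fosb and Atf3. Those that rose included the stress keratin Krt17, the hair keratin Krt33a, and Sh2d5, Rin1, Stom, Urah, Samhd1, Krit1, Srsf7 and Defb1. The called genes were 0.0895% of tested genes upward and 0.0163% downward. The median log2 fold change of all tested genes was 0.034, and 94 genes were higher and 18 lower at an adjusted p under 0.1. The 3 normalized counts at 6 hours were all above the 3 counts at 3 hours in 1642 genes (13.4%) and all below them in 1153 (9.38%), and these are the shares against which the counts of gene groups below are to be read. The groups were chosen with earlier results of these data known, so a count above a share is a description and no test. DESeq2's Wald test on the same 6 libraries, with the same rule, called 256 genes higher (2.08%) and 111 lower (0.903%), the 13 genes among them.

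The 6 libraries held 1468749 to 5743060 expected counts at 3 hours and 5281569 to 10918597 at 6 hours, so depth was on average greater at 6 hours. The shallowest library, the third digit at 3 hours, also had the lowest sample quality weight (0.453, against 0.823 to 1.645 in the others) and the lowest correlations with the other libraries (0.743 to 0.784, against 0.835 to 0.949 among the other 5, across genes on the log2 scale of normalized counts). Without it 145 genes were called higher (1.14%) and 41 lower (0.321%), with all 13 genes among them. Without the digit dated in November edgeR called no gene, with 1129 genes at an unadjusted p under 0.05, against 1629 with all 6 libraries. It also called none without the first digit at 3 hours (1653 at an unadjusted p under 0.05) or the second at 6 hours (1308), and no other tool was run on these subsets. The part of depth, date and level in the results was not tested beyond these values and those in the closing section.

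Fosb and Atf3, the 2 genes that fell, had the largest falls among all genes named here. Fosb encodes a FOS family subunit of AP-1. Its normalized count was 2520, 4831 and 1929 at 3 hours and 350.5, 115 and 157 at 6 hours. The lowest digit at 3 hours was thus far above the highest at 6 hours, and the fitted fall was 14.9-fold (log2 fold change -3.90 ± 0.51 SE, adjusted p = 0.0410, edgeR). Atf3 encodes a stress-induced factor that pairs with JUN proteins. It had 464, 912 and 383 at 3 hours and 56.2, 17.1 and 45.9 at 6 hours, which is 14.7-fold lower (log2 fold change -3.87 ± 0.50 SE, adjusted p = 0.0410, edgeR). The second digit at 3 hours was the highest of its group for both genes. Fosb lies on chromosome 7 (19302696 to 19310051, minus strand, GRCm38) and Atf3 on chromosome 1 (191170296 to 191218039, minus strand), where a small RNA gene overlaps it on the other strand.

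The promoters of both genes are shown because they fell together. The sequences are from RefSeq on GRCm38.p6, run from 250 bases before the annotated start to 50 after it, and are written 5′ to 3′ along the gene. Capitals mark matches, on either strand, to the motifs searched. These were AP-1 (TGANTCA), a cyclic AMP response element with any base in its second place (TNACGTCA), the E-box (CACGTG) and the EGR site (GCGNGGGCG). The CArG box and the NF-kB site were searched too and are given by name. In the windows shown no match to one motif overlapped a match to another. The response element was widened at that base after the Atf3 sequence was seen.
Fosb (chr7:19309996-19310295, minus strand): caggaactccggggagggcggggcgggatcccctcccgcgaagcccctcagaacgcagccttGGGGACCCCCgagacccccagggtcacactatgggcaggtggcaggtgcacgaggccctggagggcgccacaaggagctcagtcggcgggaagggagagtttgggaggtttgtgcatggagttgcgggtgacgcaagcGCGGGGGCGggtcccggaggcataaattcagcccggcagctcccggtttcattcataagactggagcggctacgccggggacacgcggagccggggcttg
Atf3 (chr1:191183284-191183583, minus strand): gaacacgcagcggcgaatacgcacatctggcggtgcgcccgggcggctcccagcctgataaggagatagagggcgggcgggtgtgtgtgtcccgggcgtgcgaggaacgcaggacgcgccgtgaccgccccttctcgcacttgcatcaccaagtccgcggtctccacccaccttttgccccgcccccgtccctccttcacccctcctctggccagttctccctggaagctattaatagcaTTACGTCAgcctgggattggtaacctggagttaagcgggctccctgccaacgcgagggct
The Atf3 window held 1 match to TNACGTCA, TTACGTCA beginning 10 bases before the start used for that window. This start lies inside the Atf3 span given above and is not the 5′ end of that span. The Fosb window held 1 EGR match and 1 NF-kB match, which begin 50 and 188 bases before the start. Neither held an AP-1 match or a CArG box. Over all 32851 promoters of the same length, TNACGTCA was found in 2.93%, the EGR site in 5.55%, the NF-kB site in 4.51%, AP-1 in 7.81%, the E-box in 7.15% and the CArG box in 1.63%. A match is a description of letters and says nothing of binding.

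The other AP-1 genes did not pass the test on all 6 libraries. Of the 11 tested members of the AP-1 list, 2 were called lower, 4 had no overlap downward and 1 had none upward, with a median log2 fold change of -0.48. Fos, the founding member of the family, was at 2397, 4882 and 1555 and then at 1073, 744 and 711, a fitted log2 difference of -1.81 ± 0.40 (adjusted p = 0.115, edgeR). The groups did not overlap, and DESeq2 and limma voom called Fos lower. Jun, the main partner of FOS proteins, was at 1376, 1629 and 684 at 3 hours and 598, 561 and 818 at 6 hours, so that its groups overlapped. Without the third digit at 3 hours edgeR called Fos and Jun lower as well as Fosb and Atf3. Junb, Jund, Fosl1, Fosl2 and Mafk also overlapped, with log2 differences between -0.48 and 0.10. Fosl1, which encodes FRA1, was at 269, 509 and 751 and then at 814, 436 and 372.

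**Figure D1:**
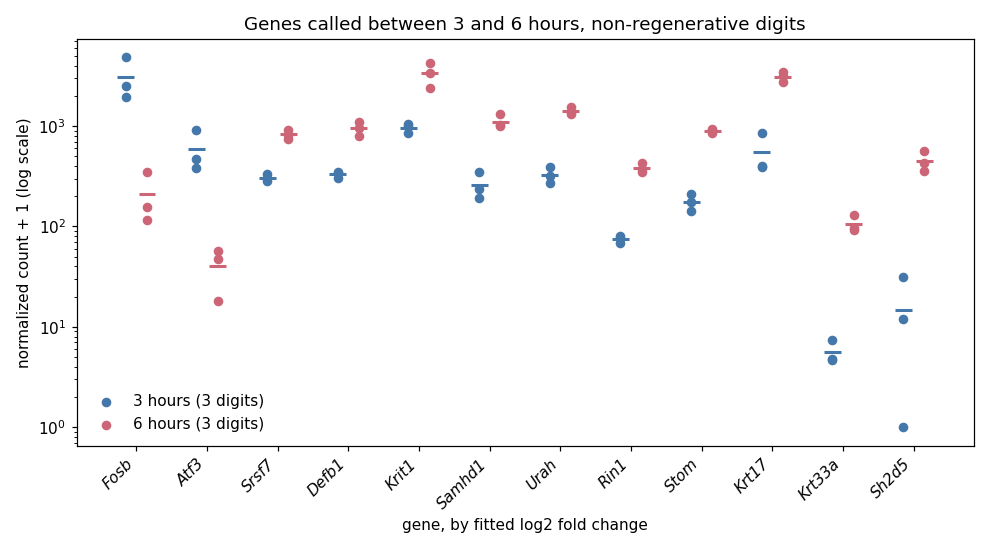
Normalized counts plus 1 on a log axis for 12 of the 13 called genes, ordered by fitted log2 fold change, with each point 1 digit (3 at 3 hours in blue, 3 at 6 hours in red) and each bar the group mean. Fosb and Atf3 are the genes whose 6 hour digits lie below the 3 hour digits, and in the other 10 genes all 6 hour digits lie above.

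Among the orphan nuclear receptors of the same early class, Nr4a1 had normalized counts of 520, 908 and 342 at 3 hours and 191, 109 and 72.7 at 6 hours (log2 difference -2.26 ± 0.45, adjusted p = 0.0933, edgeR). Nr4a2 was lower without overlap too, at 101, 105 and 171 against 65.6, 38.9 and 59.8. Egr1, the zinc finger factor often read as the first response of a wound, gave 1039, 1751 and 792 against 1296, 967 and 879, and its groups overlapped. Egr2 lay the other way, at 61.0, 72.5 and 47.5 against 212, 157 and 108 (adjusted p = 0.163, edgeR). In the list of 21 other immediate early genes 5 were higher and 2 lower without overlap, and the median was 0.07. The lower ones were the salt-inducible kinase Sik1 (1176, 1037 and 716 against 486, 525 and 440) and the nuclear factor Csrnp1 (851, 931 and 782 against 530, 398 and 404). Gadd45a and Gadd45b, which act in growth arrest and DNA repair, were among the higher ones, the latter at 85.6, 85.8 and 85.5 against 170, 177 and 193. DESeq2 called Egr2, Gadd45a, Gadd45b and Ier5 higher and Nr4a1 and Sik1 lower. Nr4a1 was also called lower by limma voom and by edgeR without the third digit at 3 hours.

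The clock genes were a further group with lower values. Of 17 tested, 7 were lower in all 3 digits at 6 hours, none was higher in all 3, and the median log2 difference was -0.61 against 0.034 for all genes. No member was called by edgeR with all 6 libraries, where 7 had an unadjusted p under 0.05. DESeq2 called Per1, Per2, Cry2 and Nfil3 lower, and limma voom called these and Nr1d1. Without the third digit at 3 hours edgeR called Per1, Cry2 and Nr1d1 lower. Per1, a repressor of the clock that also responds to stress hormones, had 994, 927 and 282 at 3 hours and 226, 225 and 193 at 6 hours (log2 difference -1.78 ± 0.41, adjusted p = 0.129, edgeR). In this gene the third digit at 3 hours lay near the 6 hour digits. Per2, a repressor of the same complex, was at 276, 307 and 295 against 123, 88.2 and 146, with tight groups at both times. Cry2, a partner of the PER proteins, was at 716, 704 and 291 against 196, 210 and 267, again with the third digit at 3 hours nearest to the later group. Nr1d1 and Nr1d2, the REV-ERB repressors, gave log2 differences of -1.03 and -0.75. Arntl, the activator BMAL1, gave -0.03 with overlapping groups. The labels give dates and no hour of collection, so hours after amputation and hour of the day cannot be told apart. Of the 15 clock genes with a promoter in the table, 5 held a CACGTG match, against 8.09% of all genes. Among the genes given above as lower, Per1 held a match in the first of its 2 promoters, while Cry2, Nfil3, Nr1d1 and Nr1d2 held none. Per2 had no promoter in the table and was not searched.

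Glucocorticoid targets overlap the clock list through Per1. Of 10 tested, 3 were lower and 1 higher without overlap, with a median of -0.17. Sgk1, a kinase induced by glucocorticoids, was at 2509, 2933 and 1438 against 1042, 1312 and 1047, and the transcription factor Klf9 at 394, 290 and 415 against 202, 116 and 162. The one that was higher, the iron-binding acute phase protein Lcn2, was at 11.8, 15.3 and 15.8 against 74.0, 144 and 94.3 (adjusted p = 0.0770, edgeR). The DESeq2 calls were Lcn2 higher and Per1, Klf9 and Sgk1 lower.

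Heat shock genes were divided. Of 18 tested, 5 were lower and 7 higher in all 3 digits at 6 hours, with a median of 0.28 and no edgeR call (5 higher and 5 lower at an unadjusted p under 0.05). The lower ones were the inducible HSP70 genes Hspa1a and Hspa1b, the co-chaperones Dnajb1 and Dnajb4, and Hspb8. Hspa1b was at 2554, 2239 and 2160 at 3 hours and 1435, 1325 and 1502 at 6 hours (log2 difference -0.71 ± 0.18, adjusted p = 0.148, edgeR). Hspa1a and Hspa1b are near-identical copies, so the division of reads between them is uncertain. The higher ones included Hsp90aa1, the inducible cytosolic HSP90, at 1295, 1713 and 1919 against 3703, 2372 and 4156 (log2 difference 1.06 ± 0.26, adjusted p = 0.142, edgeR), and Hspd1 and Hspe1, the mitochondrial chaperonin pair, with log2 differences of 0.65 and 0.76. DESeq2 called only Hsp90aa1 among the 18.

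Of the 11 genes that rose, Stom, Urah and Rin1 had the smallest adjusted p-values (0.0201, edgeR). Stom encodes stomatin, a protein of the inner face of the plasma membrane. It had normalized counts of 175, 143 and 209 at 3 hours and 908, 933 and 858 at 6 hours, and rose 5.15-fold (log2 fold change 2.36 ± 0.22 SE). Rin1, a RAS effector that activates RAB5, was at 80.1, 66.8 and 76.0 and then at 426, 374 and 347, with narrow groups, and rose 5.13-fold. Urah, named as a hydrolase of the urate pathway, was at 268, 317 and 390 and then at 1564, 1389 and 1311, and rose 4.40-fold. Urah overlaps a protein-coding and an antisense gene on the other strand, and whether counting used strand is not given in the sources used here, so its reads are uncertain.

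Samhd1 encodes a dNTP-hydrolysing enzyme that limits virus replication. Its normalized count was 233, 191 and 348 at 3 hours and 1016, 1310 and 991 at 6 hours, a rise of 4.33-fold (adjusted p = 0.0410, edgeR). Srsf7, a splicing factor, was at 281, 299 and 329 and then at 818, 750 and 904, a rise of 2.72-fold (adjusted p = 0.0410, edgeR). Defb1, an epithelial antimicrobial peptide, rose least but for Srsf7, from 300.4, 343 and 345 to 952, 801 and 1094 (2.89-fold, adjusted p = 0.0410, edgeR). Krit1, a scaffold of endothelial junctions, was at 853, 990 and 1048 and then at 2409, 3401 and 4200, and rose 3.47-fold (adjusted p = 0.0437, edgeR). Its counts are uncertain because Lrrd1 overlaps it on the same strand.

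Sh2d5 and Krt33a had the largest fold changes and the fewest counts at 3 hours. Sh2d5, an adaptor with an SH2 domain, was at 10.9, 30.5 and 0 at 3 hours and at 568, 359 and 430 at 6 hours (log2 fold change 4.94 ± 0.63 SE, adjusted p = 0.0410, edgeR). The shallowest library gave the 0, and Kif17 overlaps the gene on the same strand, so the reads may be divided between the genes. Krt33a, a keratin of the hair and nail cortex, was at 3.64, 3.81 and 6.34 and then at 91.8, 94.8 and 130 (log2 fold change 4.59 ± 0.54 SE, adjusted p = 0.0370, edgeR). Type I hair keratins are close copies, so its counts are uncertain as well. Unlike the other hair keratins tested, whose digits overlapped, Krt33a was low in all digits at 3 hours and high in all at 6 hours. Some keratin-associated genes given below were also higher without overlap.

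Epidermal genes of the wound response were mostly higher at 6 hours. Of 15 tested wound keratin and early differentiation genes, 11 were higher in all 3 digits at 6 hours, none was lower, and the median log2 difference was 1.89. The nail and hair keratins, used here as tissue markers, had a median nearly as high (1.83), with all 14 tested higher in the mean, 7 at an unadjusted p under 0.05 and 2 without overlap. The part of nail tissue in the keratin values was not tested. Krt17 passed the edgeR test, and DESeq2 called 8 members. Krt17, a keratin of stressed and migrating keratinocytes, was at 401, 856 and 386 at 3 hours and 3139, 3433 and 2743 at 6 hours (5.66-fold, log2 fold change 2.50 ± 0.33 SE, adjusted p = 0.0410, edgeR). Krt6a and Krt16, the partner keratins of activated epidermis, were at 4250, 9756 and 3880 against 24070, 23870 and 18370, and at 2334, 7155 and 4615 against 21830, 21390 and 20290. Their adjusted p-values were 0.0933 and 0.0770 by edgeR. In all 3 genes the second digit was the highest at 3 hours, and even so it stayed below every digit at 6 hours. The summed normalized TPM of the list was 2638 to 6142 at 3 hours and 12390 to 13500 at 6 hours. Keratins and Sprr genes have close copies, which makes the division of reads between members uncertain.

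The small proline-rich genes, which encode precursors of the cornified envelope, were part of this group. Sprr1a had 340, 763 and 624 at 3 hours and 1860, 1607 and 2038 at 6 hours (adjusted p = 0.0824, edgeR). Sprr2h was at 88.3, 109 and 60.2 against 407, 366 and 292 (log2 difference 2.03 ± 0.29, adjusted p = 0.0587, edgeR), and Sprr2d at 4.55, 15.3 and 0 against 89.0, 74.9 and 92.8. Sprr2e had no count in any digit at 3 hours and 63 counts over the digits at 6 hours, at least 10-fold higher when 3 counts over the group are taken as the floor. Sprr1b, a close relative, overlapped at 1873, 3414 and 1365 against 2446, 2655 and 3002.

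Promoters of a pair of these genes are shown because most members of the family shared a motif. The 8 Sprr genes of the list all had a promoter in the table, and 7 held an AP-1 match (TGANTCA), against 8.97% of all genes. None of the 6 Lce3 genes, which neighbour them on chromosome 3, held one. The family arose by duplication, so the matches are not independent of each other.
Sprr1a (chr3:92485832-92486131, minus strand): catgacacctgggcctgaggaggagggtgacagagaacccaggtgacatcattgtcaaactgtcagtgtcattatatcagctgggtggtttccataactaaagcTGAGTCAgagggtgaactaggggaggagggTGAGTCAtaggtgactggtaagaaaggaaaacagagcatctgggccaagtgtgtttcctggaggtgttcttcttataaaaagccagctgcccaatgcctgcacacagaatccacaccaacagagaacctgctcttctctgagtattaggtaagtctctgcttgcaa
Sprr2h (chr3:92385435-92385734, plus strand): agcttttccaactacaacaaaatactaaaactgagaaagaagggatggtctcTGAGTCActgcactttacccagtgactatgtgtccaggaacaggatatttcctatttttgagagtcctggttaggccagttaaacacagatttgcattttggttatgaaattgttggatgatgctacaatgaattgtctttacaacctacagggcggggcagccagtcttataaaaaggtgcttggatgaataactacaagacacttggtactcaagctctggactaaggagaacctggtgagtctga
Sprr1a held TGAGTCA beginning 146 and 116 bases before the start, and Sprr2h beginning 198 bases before the start.

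Genes of keratinocyte migration followed. Of 18 tested, 7 were higher without overlap and none lower, with a median of 0.95. Lamb3, a laminin chain of the epidermal basement membrane, was at 477, 595 and 358 against 1015, 912 and 621, and the integrin genes Itga6 and Itgb1 had log2 differences of 0.91 and 1.19 with no overlap. Tnc, which encodes the matrix protein tenascin-C, was at 61.0, 82.0 and 133 against 1150, 354 and 368 (adjusted p = 0.0918, edgeR), with the first digit at 6 hours far above the other digits. Plaur, the urokinase receptor, overlapped only through the third digit at 3 hours, and without that digit it was called higher.

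**Figure D2:**
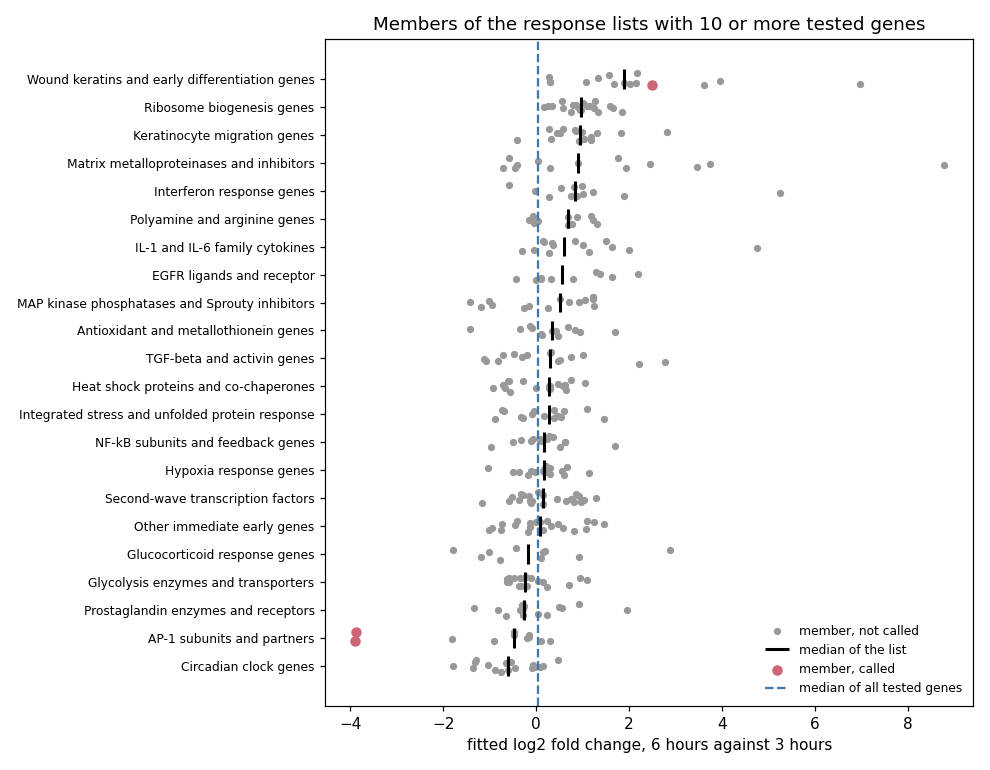
Fitted log2 fold changes (6 hours against 3 hours) of the members of the 22 response lists with 10 or more tested genes, with called genes in red, other members in grey, each list's median as a black bar and the median of all tested genes (0.034) as a dashed line. A pair of members is not drawn. Wound keratins, ribosome biogenesis and migration genes lie furthest to the right, and clock and AP-1 genes furthest to the left.

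Of the ribosome biogenesis genes all 20 tested had a higher fitted value at 6 hours, with log2 differences of 0.16 to 1.85. Of these 16 had no overlap, and the median was 0.96. No member passed the edgeR test with all 6 libraries, although 15 had an unadjusted p under 0.05, and DESeq2 called 7. Without the third digit at 3 hours edgeR called Rrs1 and Wdr12 higher. Nolc1, a nucleolar chaperone, was at 399, 385 and 405 against 782, 709 and 1159 (log2 difference 1.16 ± 0.23, adjusted p = 0.0933, edgeR). Wdr12, of the PES1 complex that matures the large subunit, was at 229, 238 and 250 against 447, 487 and 506, with narrow groups at both times. Noc4l and Rrs1, assembly factors of the small and the large subunit, had log2 differences of 1.85 and 1.65. Polr1b, which encodes a subunit of RNA polymerase I, was at 122, 153 and 124 against 330, 367 and 251. Npm1, Nip7, Fbl and Nop58 overlapped. The November digit was the highest of all for Ncl (30310 against 8517 to 14980 in the other 5) and Wdr43.

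Polyamine genes, whose products support growth, included 4 of 11 with no overlap upward and none downward (median 0.68). The arginine transporter Slc7a1 was at 459, 538 and 386 against 1237, 936 and 1055 (log2 difference 1.22 ± 0.21, adjusted p = 0.0770, edgeR). Amd1 and Odc1, the enzymes that set the rate of polyamine synthesis, had log2 differences of 1.17 and 0.76. DESeq2 called Slc7a1 and Amd1.

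Among growth factors, 5 of 10 genes of the EGF receptor system were higher without overlap, and the median was 0.55. Tgfa, a ligand made by keratinocytes, was at 88.3, 130 and 91.9 against 385, 358 and 219 (log2 difference 1.63 ± 0.31, adjusted p = 0.0918, edgeR). Areg, another ligand, was at 24.6, 43.9 and 199.6 against 343, 311 and 476, and Egfr, the receptor, at 520, 586 and 409 against 1029, 806 and 777. Hbegf, Ereg and the feedback inhibitor Errfi1 overlapped. Of 15 genes of the TGF-beta and activin system 3 were higher and 3 lower without overlap, and the median was 0.30. Inhba (activin A) was at 14.6, 5.72 and 44.3 against 160, 126 and 121, and its antagonist Fst at 117, 170 and 215 against 1260, 426 and 625, and both were higher without overlap, as was the corepressor Tgif1. The lower ones were the ligand Tgfb3 (107, 93.4 and 171 against 66.5, 41.7 and 59.8), the inhibitor Smad6 and the corepressor Skil. DESeq2 called Tgfa, Areg, Inhba and Fst higher.

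Inflammatory genes held no edgeR call with all 6 libraries. Of 14 tested IL-1 and IL-6 family genes 4 were higher without overlap and none lower (median 0.60), of 4 other cytokines 3 were higher (median 2.08), of 4 neutrophil-attracting chemokines 2 (median 1.47), and of 4 CC chemokines 1 (median -0.03). At an unadjusted p under 0.05 these lists held 3, 2, 3 and 1 genes, all higher, and DESeq2 called Clcf1, Il1a, Il19 and Cxcl5. Limma voom called Clcf1, Il1b, Il19, Cxcl2 and Ccl20 higher. EdgeR without the third digit at 3 hours called Clcf1, Il19, Il24 and Cxcl2 higher. Il19, a cytokine of the IL-10 family, had no count in any digit at 3 hours and 130, 52 and 85 counts at 6 hours, at least 42.5-fold higher against the same floor. Mmp10, the protease stromelysin-2 of the wound edge, had none at 3 hours and 70, 65 and 72 counts, at least 32.9-fold higher. Their adjusted p-values were 0.0770 by edgeR. The CC chemokine list holds 8 genes, and members with too few counts were not tested. Of the list, Ccl3, Ccl4 and Ccl12 had no count in any digit at 3 hours. At 6 hours Ccl3 had 14, 20 and 5 counts, Ccl4 17, 19 and 12, and Ccl12 23, 2 and 3. Against the same floor these were at least 6.2, 7.64 and 4.45-fold higher. Without the third digit at 3 hours 6 CC chemokines were tested, with a median of 2.07 and no call. Lif, a cytokine of the IL-6 family, was at 7.28, 30.5 and 6.34 against 1005, 86.3 and 94.9, with the first digit at 6 hours well above the others. The chemokine Cxcl2 was at 19.1, 36.2 and 177 against 317, 268 and 253, while Il1b (22.8, 78.2 and 288 against 474, 365 and 209) and Il6 (129, 137 and 485 against 410, 78.7 and 105) overlapped. The third digit at 3 hours was the highest of its group for all 3 of these genes. Ptges, the inducible prostaglandin E synthase, was at 117, 212 and 298 against 917, 847 and 636 (adjusted p = 0.0770, edgeR), and the haem oxygenase Hmox1 at 193, 130 and 66.5 against 525, 378 and 397. Mmp10, Ptges and Hmox1 were called higher by DESeq2, by limma voom and by edgeR without the third digit at 3 hours.

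The other response lists held no edgeR call with all 6 libraries. Feedback inhibitors of MAP kinase, 15 tested, had 4 members higher and 2 lower without overlap (median 0.51), and 3 higher and 4 lower at an unadjusted p under 0.05. Of 13 matrix metalloproteinase and inhibitor genes 3 were higher and 1 lower without overlap (median 0.90), of 13 antioxidant and metallothionein genes 4 were higher and none lower (median 0.33), and of 14 prostaglandin genes 2 lay each way (median -0.27). Dusp6, a phosphatase of ERK, was at 197, 290 and 570 against 1023, 657 and 757, while Dusp16, a phosphatase of JNK, was at 788, 862 and 706 against 215, 440 and 510. Of 16 integrated stress and unfolded protein genes 4 were higher and 3 lower without overlap (median 0.27), and Herpud1, of endoplasmic reticulum protein disposal, was at 333, 397 and 374 against 211, 242 and 148. NF-kB genes, 14 tested, had a median of 0.18 and 1 member without overlap, the cofactor Bcl3, at 69.2, 68.7 and 146 against 242, 334 and 320. Second-wave transcription factors, 23 tested, had 4 higher and 3 lower (median 0.16), among them the chromatin protein Hmga1 at 162, 174 and 190 against 559, 342 and 383. DESeq2 called Bcl3 and Hmga1 higher. Hypoxia genes (17 tested, median 0.17) and glycolysis genes (18 tested, median -0.23) held no call by edgeR or DESeq2, and 1 hypoxia gene in each direction and 1 glycolysis gene upward had an unadjusted p under 0.05 by edgeR. Of 12 interferon response genes 1 had no overlap, the antiviral GTPase Mx1, with 1 count over the digits at 3 hours and 39, 14 and 36 counts at 6 hours (ratio 43, 95% counting interval 7.52 to 1720). The median of these 12 was 0.85, and DESeq2 called Mx1 higher.

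Epidermal markers were abundant in all digits, while nail and bone markers differed widely between digits of the same time. Summed normalized TPM of 14 epidermal keratinocyte markers was 48610 to 87340 at 3 hours and 49020 to 76620 at 6 hours. Of these 14, 9 were higher and 5 lower in the mean, and edgeR called none with all 6 libraries. Krt14 and Trp63 were the 2 higher without overlap (log2 differences 0.30 and 0.52), a share near the 13.4% of all tested genes. The 14 nail and hair keratins summed to 643, 1076 and 117 at 3 hours and 3926, 882 and 1766 at 6 hours, with 2 members higher without overlap, Krt33a and Krtap13-1. Osteoblast and osteocyte markers summed to 37.8, 60.7 and 619 and then to 908, 14.3 and 234, so the digits held bone markers in unequal amounts at both times. The second digit at 6 hours was at 0 for Ibsp, Bglap and Sp7. In bulk RNA, fewer cells of a type and less RNA per cell cannot be told apart. The part of these unequal marker levels in the results was not tested.

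Blood cell markers did not all lie the same way. Platelet and red cell markers summed to 976, 357 and 850 normalized TPM at 3 hours and 746, 153 and 311 at 6 hours, with a median log2 difference of -1.11 over 7 tested, and the platelet integrin Itga2b was lower without overlap. Summed neutrophil markers, with 20 genes in the list, were 67.4 to 249 normalized TPM at 3 hours and 285 to 451 at 6 hours. Over 12 tested the median log2 difference was 1.13, with 3 members higher without overlap. These were S100a8, S100a9 and Trem1, a receptor that amplifies neutrophil and macrophage activation. S100a9, which keratinocytes also make when stressed, was at 4.55, 13.4 and 38.0 against 200.5, 141 and 240 normalized counts (adjusted p = 0.0877, edgeR), and Trem1 had 1 count at 3 hours and 224 at 6 hours, a ratio of 107 with a 95% counting interval of 19 to 4240 that covers counting error only. The granule genes Ltf, Mpo and Elane were at or near 0 in every digit. Monocyte and macrophage markers summed to 100.5 to 415 and 117 to 247. Their median log2 difference was -0.87 over 15 tested, of which 13 were lower in the mean. Without the third digit at 3 hours that median was -0.21 over 16 tested. Fibroblast markers summed to 1010 to 4402 and 723 to 2858, sweat gland markers to 357 to 498 and 73.2 to 364, and mitochondrially encoded genes to 32000 to 42820 and 28740 to 43370.

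**Figure D3:**
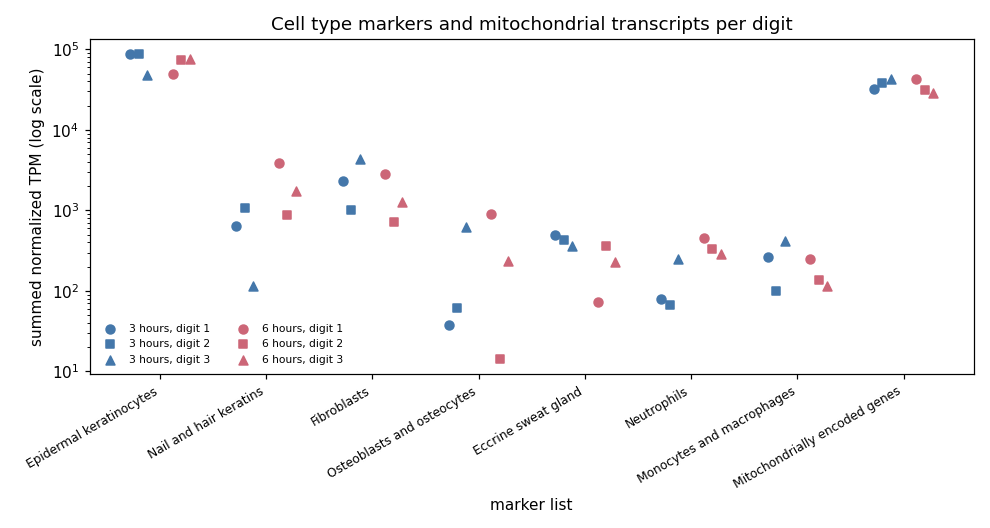
Summed normalized TPM (log axis) of 7 cell type marker lists and of the mitochondrially encoded genes in each of the 6 digits, 3 hours in blue and 6 hours in red, with the marker shape giving the digit within its time. Neutrophil sums at 6 hours (285 to 451) lie above those at 3 hours (67.4 to 249), while bone marker sums spread from 14.3 to 908 with both times mixed.

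The rule for genes that missed the test, the 10 largest differences in each direction among genes without overlap and with an unadjusted p under 0.05 and a mean count of at least 100, added further genes. Upward these were Hivep3, a zinc finger factor (53.7, 20.98 and 22.2 against 477, 207 and 211, adjusted p = 0.0663, edgeR), Slpi, a protease inhibitor of epithelia (12.8, 5.72 and 72.9 against 217, 217 and 203), the stromelysin Mmp3, of the metalloproteinase list (29.1, 111 and 405 against 3546, 1311 and 875), Neu2, a sialidase (34.6, 53.4 and 3.17 against 265, 253 and 118), Sprr2b, and the keratin-associated genes Krtap13 and Krtap3-3. Krtap3-3 was at 207, 149 and 9.50 against 1220, 218 and 1612, a spread like that of the nail keratins above. Downward, Eln, which encodes elastin, was at 1877, 835 and 1631 against 466, 468 and 418 (log2 difference -1.69 ± 0.30, adjusted p = 0.0804, edgeR). Cd248, a surface protein of stromal cells, was at 225, 76.3 and 203 against 56.2, 55.0 and 47.4, and Hhip, which binds and restrains hedgehog ligands, at 143, 248 and 152 against 3.75, 26.6 and 57.2. Aldh4a1, of proline breakdown, the peptidase Prcp, the tubulin-binding Tppp and Mettl7a1 had log2 differences of -1.96, -1.55, -1.52 and -1.51.

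The levels of called genes across the 9 times of the non-regenerative series are given as a description, with no test, in normalized TPM. At 14 days the normalized TPM of the second digit summed to 3362791 over all genes, against 836756 and 939809 in the others. At 7 days the second digit summed to 1434851, against 879844 to 1086228 in the others. Levels at these times are therefore uncertain. Fosb had a mean of 178 ± 208 at 0 hours (SD, n = 3), where the digits differed widely, 272 at 3 hours, 19.1 at 6 hours and 17.1 at 12 hours, and stayed under 25 until 14 days. Atf3 had its highest mean at 3 hours (118) and was at 7.95 at 6 hours. Fosb and Atf3 thus had their highest means at 3 hours, while Fos had its highest mean at 0 hours (621, then 470 and 141). Krt17 was at 178, 117 and 680 at the first 3 times, at 2002 at 12 hours and at 3031 at 24 hours, its highest. Defb1, Krit1, Srsf7 and Stom had their highest mean at 6 hours (376, 321, 122 and 126), and Urah, Samhd1, Rin1 and Sh2d5 at 12 hours. Krt33a was highest at 0 hours (43.5), lowest at 3 hours (0.75) and at 21.2 at 6 hours.

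**Figure D4:**
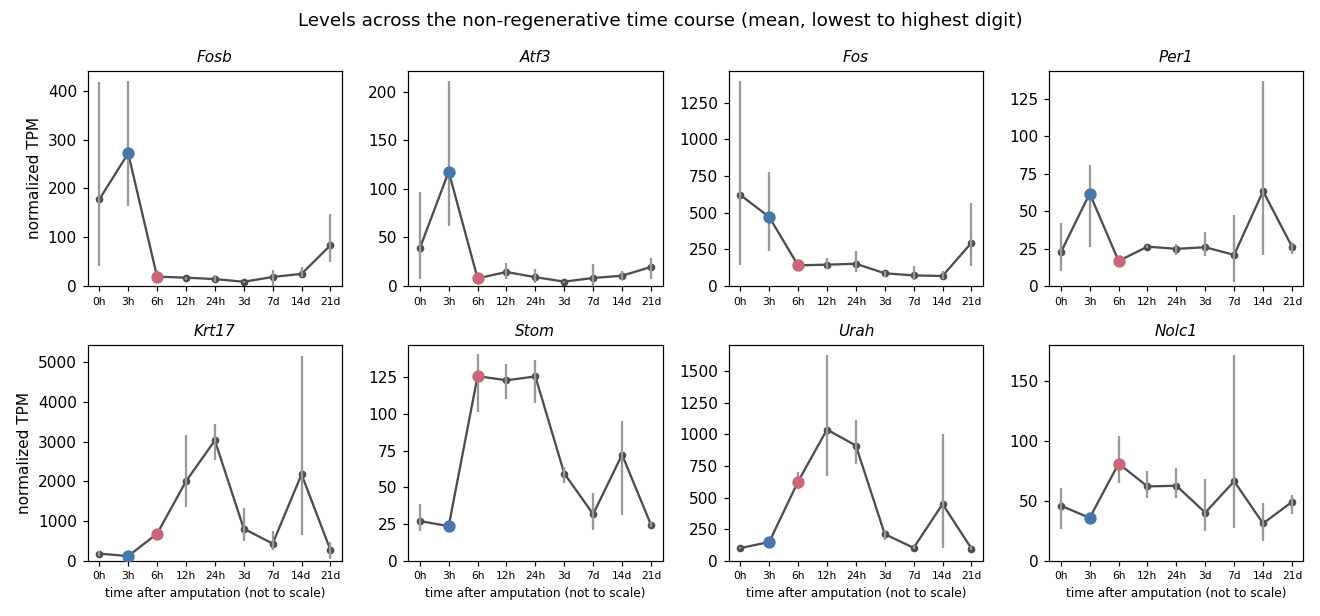
Mean normalized TPM of 8 genes at the 9 times of the non-regenerative series (points joined by lines, times not to scale), with bars from the lowest to the highest digit (3 digits a time, 5 at 7 days) and the 3 and 6 hour means in blue and red. Fosb and Atf3 drop from 272 and 118 at 3 hours to 19.1 and 7.95 at 6 hours, and Krt17 goes on from 680 at 6 hours to 3031 at 24 hours. The second digits at 7 and 14 days have high sums of normalized TPM over all genes, so levels at these times are uncertain.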

How the data were processed

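RNA-seq of single digits was analysed for 3 non-regenerative digits at 3 hours and 3 at 6 hours. The authors mapped reads to Ensembl v75 mouse genes with Bowtie and made deposited expected counts per gene with RSEM 1.2.3 (mm10, per the labels). The second deposited table holds TPM that the authors scaled by median ratios, a normalized signal used here for levels, list sums and other times. Expected counts were rounded, filtered (filterByExpr), scaled by TMM and tested with edgeR 4.0.16 in R 4.3.3 on the 6 libraries, in place of the EBSeq test of the study. A normalized count is a count scaled to the mean effective library size. Genes were called at an adjusted p under 0.05 and over 2-fold of mean count plus 1. DESeq2 1.42.0 and limma 3.58.1 served as alternatives. The fit was tested on simulated data. Depth was 1468749 to 10918597 counts per library. Where counts are 0, 3 counts were taken as the floor, which covers counting error only. Gene positions are from GENCODE M21, matched by Ensembl ID. 26 gene names that a spreadsheet had turned into dates were restored. Named genes were the called genes, the 10 largest differences in each direction among genes not called, the list members furthest from 0 or needed for their role, and cell markers; 2 genes, 1 of them called, are not reported here. The digits were taken by their labels, but the comparison and the gene lists were chosen with earlier results of these data known. Macrophage cultures and other digits, other than in the time course and alternatives, were not used.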

Additional observations from a re-analysis of the deposited data

How the results depend on the processing

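All 13 called genes kept their direction under all 17 alternatives, of which July dates only and leaving out the last digit at 6 hours use the same 5 libraries, and none of the 33 genes named by the rule reversed, but the count of calls depended strongly on the fit. Log2 fold changes ranged from 2.18 to 2.50 for Stom, 2.21 to 2.45 for Rin1, 3.66 to 5.65 for Krt33a and 4.01 to 12.24 for Sh2d5. The counts, 11 higher and 2 lower in the main test, were 256 and 111 with DESeq2, 202 and 76 with limma voom and sample quality weights, and 99 and 17 with no filter on low counts, each with all 13 genes called. With limma on log2 of normalized TPM plus 1 the counts were 7 and 0 (3 of the 13). With all 29 non-regenerative digits in 1 fit they were 11 and 0 (2 of the 13). Adding the date period to that fit gave 15 and 0 (2 of the 13). With the level above 67% as a term, or with July dates only, they were 0 and 0 (1700 and 1129 genes at an unadjusted p under 0.05). The fit of digits labelled above 67% held only 1 digit at 3 hours, the shallowest library, so its calls are not given. Leaving out 1 digit gave 0 to 145 higher and 0 to 41 lower. Without the first digit at 3 hours, or the second or the last at 6 hours, none was called. Without the second at 3 hours only Krt17 was called, and without the first at 6 hours 6 of the 13 kept their call. DESeq2 size factors in edgeR and no fold rule left 11 and 2. The cause of these differences was not tested. The November digit is the only 6 hour digit of its period, and the 0 calls without it rest on 2 digits at 6 hours. With 3 digits a group and a common biological coefficient of variation of 0.393, a gene that missed the test is not shown to be unchanged. No paired analysis was possible because no label ties a digit at 3 hours to one at 6 hours. The replicate numbers used here are in accession order, and codes in the labels that recur across the times are not explained there.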
